A study of Saccharomyces cerevisiae with 17 samples.

Results

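The genes ERG6, ERG2, ERG3, ERG5 and ERG4 encode the enzymes of the last steps of ergosterol synthesis in Saccharomyces cerevisiae, and their expression was followed through a wine fermentation. They were taken by symbol from the array annotation, which gave each of them 1 probe set (ERG6 is YML008C, ERG2 YMR202W, ERG3 YLR056W, ERG5 YMR015C and ERG4 YGL012W), so that 5 of the 5449 genes measured are described here. The industrial wine yeasts BM45 and VIN13 had been grown in must of Colombar grapes with little oxygen, and total RNA was hybridised to Affymetrix yeast arrays. Samples came from day 2 (exponential growth), day 5 (early stationary phase) and day 14 (late stationary phase), and the must, the aeration and the array were shared by all 6 groups. BM45 had 2 arrays at day 2, and each other group had 3 arrays, 17 in all. The labels name no mutation or added agent in either strain and do not state whether replicates came from separate fermentations, so the p-values measure the spread between these arrays only.

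Ergosterol is the main sterol of yeast membranes, where it sets fluidity and takes part in tolerance of ethanol. Its synthesis starts from acetyl-CoA, passes through mevalonate, squalene and lanosterol to zymosterol, and ends with the steps described here. Erg6p adds a methyl group to the side chain of zymosterol, with S-adenosylmethionine as the donor. Erg2p then shifts a double bond in the ring system, Erg3p introduces a double bond at C-5, Erg5p, a cytochrome P450, introduces one in the side chain at C-22, and Erg4p reduces a side chain double bond to give ergosterol. Erg3p and Erg5p need molecular oxygen, as do several enzymes before them, and yeast without oxygen depends on sterol taken up from its medium.

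Intensities were compared as log2(intensity + 16), a scale on which 1 unit is a doubling, and "rose", "fell" and "differed" are used only of genes with a limma p under 0.05 after Benjamini-Hochberg adjustment across all 5449. Differences are given ± standard error of the fitted contrast. The median gene lay between 866.6 and 1150.4 on single arrays. Its change was -0.07 in BM45 and -0.03 in VIN13 from day 2 to 5, and -0.19 and -0.03 from day 5 to 14. Every value of the 5 genes, from 911.7 to 16139, lay above the background bound of 100.7 set by probe sets for Schizosaccharomyces pombe genes. The signal of the ACT1 control at its 3' end over that at its 5' end, a sign of RNA integrity, was 2.29 and 5.33 in BM45 at day 2 and 1.70 to 5.55 in VIN13 at day 2, against 1.39 to 2.86 on the arrays of the later days. A group of 4 arrays, replicate 4 of BM45 at day 2 and, of VIN13, replicate 1 at day 2 and replicate 3 at both later days, had been seen in earlier work on these data to deviate together, and counts are given with and without them. Without them BM45 at day 2 is left with 1 array, so every such value that involves it rests on a single sample assumed to vary like the other groups. A culture gives bulk RNA, in which fewer cells expressing a gene and less of its RNA per cell cannot be told apart.

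All 5 genes were brightest at day 2 and dimmest at day 14 in both strains, but by different amounts and on a different course. ERG6 lost most, 14.1-fold in BM45 and 9.41-fold in VIN13. ERG6, ERG2, ERG3 and ERG5 did not pass between the strains at days 2 and 5 in the fit as described, though ERG3 and ERG2 did at day 5 in some alternatives, and were higher in VIN13 at day 14. ERG4 was higher in VIN13 at every day sampled, though at day 2 it lost the call in some alternatives.

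**Figure D1:**
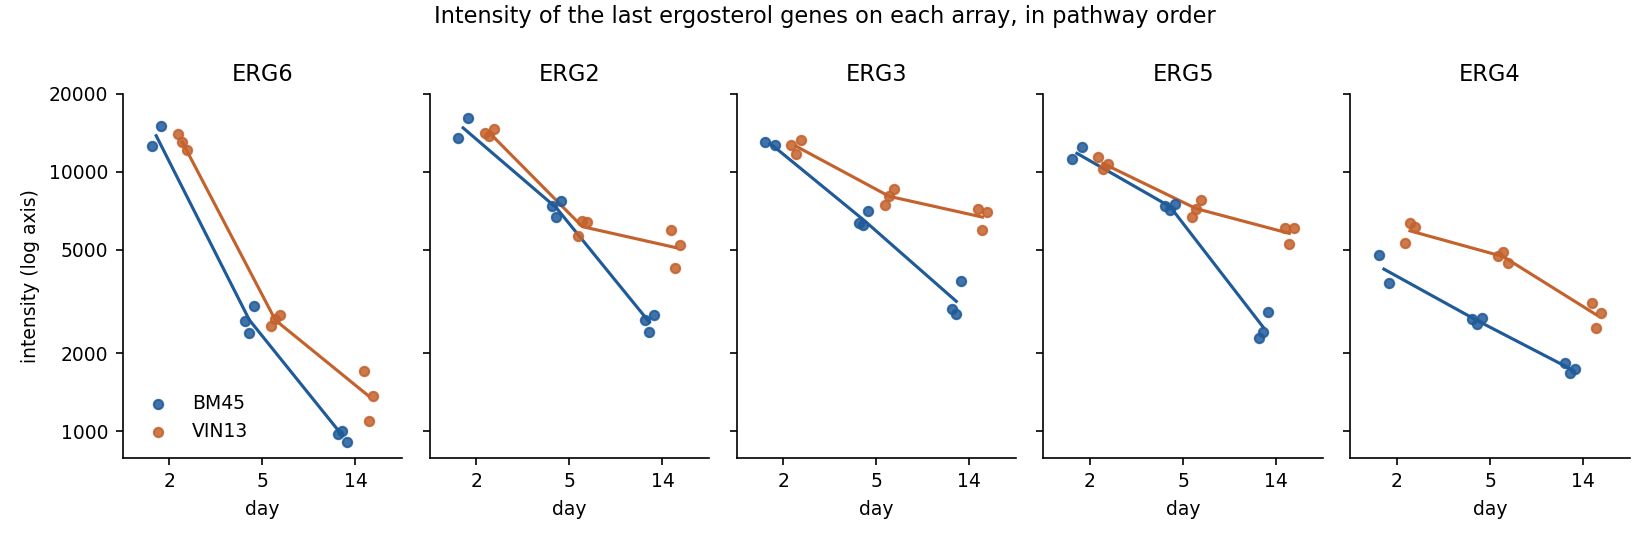
Intensity on a log axis against the day of sampling (days evenly spaced, not to scale) for each gene in the order of the pathway, with 1 point per array and a line through the group means on the log2 scale, BM45 in blue and VIN13 in orange. The strains lie together at day 2 for every gene but ERG4 and apart at day 14, where the BM45 arrays of ERG6 sit between 912 and 1002 and those of VIN13 between 1095 and 1710.0.

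ERG6, the sterol C-24 methyltransferase gene, read 12599 and 15011 on the BM45 arrays of day 2, 2662, 2396 and 3030.1 at day 5, and 974, 1002 and 912 at day 14. In VIN13 it read 13997, 13004 and 12092.5 at day 2, 2548, 2694 and 2798 at day 5, and 1710.0, 1095 and 1366 at day 14. Within each strain no array of one day reached into the range of another day, and at days 2 and 5 the ranges of the strains overlapped. ERG6 fell from day 2 to 5, changing by -2.35 ± 0.15 in BM45 (adjusted p = 3.98e-08) and by -2.27 ± 0.14 in VIN13 (adjusted p = 2.43e-08). From day 5 to 14 it fell, changing by -1.47 ± 0.14 in BM45 (adjusted p = 3.88e-07) and -0.96 ± 0.14 in VIN13 (adjusted p = 9.65e-05). The first interval held 61.6% of the whole log2 fall in BM45 and 70.3% in VIN13.

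ERG2, the sterol C-8 isomerase gene, read 13463 and 16139 in BM45 at day 2, 7386, 6714 and 7717 at day 5, and 2686, 2417 and 2799.8 at day 14. In VIN13 it read 14084, 13745 and 14614 at day 2, 5636, 6426 and 6389 at day 5, and 5949, 4267.5 and 5225 at day 14. BM45 thus had 3 separate levels, whereas the VIN13 arrays of days 5 and 14 overlapped. ERG2 fell from day 2 to 5, changing by -1.02 ± 0.13 in BM45 (adjusted p = 1.89e-05) and by -1.20 ± 0.12 in VIN13 (adjusted p = 3.32e-06). Between days 5 and 14 it fell, changing by -1.46 ± 0.12 in BM45 (adjusted p = 1.02e-07), and in VIN13 the difference was -0.27 ± 0.12 (adjusted p = 0.0837). Leaving out 1 array moved that last value between -0.38 and -0.14, and without VIN13 day 14 replicate 1 it passed (adjusted p = 0.022). The first interval held 41.1% of the net log2 fall in BM45 and 81.8% in VIN13.

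ERG3, the C-5 sterol desaturase gene, read 13044 and 12656 in BM45 at day 2, 6327, 6230.4 and 7079.7 at day 5, and 2946, 2840.3 and 3789 at day 14. In VIN13 it read 12711, 11681 and 13229.8 at day 2, 7452, 8089 and 8594 at day 5, and 7156, 5984 and 6966 at day 14. The VIN13 arrays of day 14 overlapped with the BM45 arrays of day 5. ERG3 fell from day 2 to 5, changing by -0.97 ± 0.13 in BM45 (adjusted p = 2.08e-05) and by -0.64 ± 0.12 in VIN13 (adjusted p = 0.000633). It fell from day 5 to 14, changing by -1.04 ± 0.12 in BM45 (adjusted p = 1.64e-06), and in VIN13 the difference was -0.26 ± 0.12 (adjusted p = 0.0757). Without BM45 day 14 replicate 3, which alters only the shared spread, that value passed (adjusted p = 0.0448). Days 2 to 5 held 48.3% of the net log2 fall of ERG3 in BM45 and 70.7% in VIN13.

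ERG5, the C-22 sterol desaturase gene, read 11166 and 12391 in BM45 at day 2, 7378, 7107 and 7510.05 at day 5, and 2288, 2422 and 2872.5 at day 14. In VIN13 it read 11347, 10232 and 10705 at day 2, 6716, 7151 and 7787 at day 5, and 6088, 5247 and 6055 at day 14. No array of one day reached another day's range in either strain, and the gap between days 5 and 14 was wide in BM45 and narrow in VIN13. Of the net log2 fall of ERG5, days 2 to 5 held 30.7% in BM45 and 64.6% in VIN13. ERG5 fell from day 2 to 5, changing by -0.68 ± 0.11 in BM45 (adjusted p = 0.000163) and by -0.58 ± 0.10 in VIN13 (adjusted p = 0.000547). After day 5 it fell, changing by -1.54 ± 0.10 in BM45 (adjusted p = 2.05e-08) and by -0.32 ± 0.10 in VIN13 (adjusted p = 0.0212). That last call ended without VIN13 day 14 replicate 3 (adjusted p = 0.0921), without VIN13 day 5 replicate 2 or 3 (0.0506 and 0.0761), without the 4 arrays (-0.19, adjusted p = 0.12), with quantile normalization (adjusted p = 0.0746) and with only the arrays compared in the fit (adjusted p = 0.0506).

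ERG4, the C-24 sterol reductase gene of the final step, read 4786 and 3707 in BM45 at day 2, 2697, 2585 and 2733 at day 5, and 1825, 1670.5 and 1732 at day 14. In VIN13 it read 5320.3, 6345 and 6131 at day 2, 4749, 4920.2 and 4466 at day 5, and 3121, 2499 and 2844 at day 14. At each day every VIN13 array lay above every BM45 array, and the BM45 arrays of day 2 overlapped with the VIN13 arrays of day 5. ERG4 fell from day 2 to 5, changing by -0.65 ± 0.12 in BM45 (adjusted p = 0.000442) and by -0.33 ± 0.11 in VIN13 (adjusted p = 0.0297). In the second interval it fell, changing by -0.61 ± 0.11 in BM45 (adjusted p = 0.000172) and by -0.74 ± 0.11 in VIN13 (adjusted p = 0.000125). Days 2 to 5 held 51.65% of its net log2 fall in BM45 and 30.7% in VIN13, while for the other 4 genes the share was larger in VIN13. Within groups ERG4 changed by -0.21 per doubling of the ACT1 ratio, against -0.05 for the median gene and 0.02 to 0.09 for the other 4. Its fall in VIN13 from day 2 to 5 lost the call without VIN13 day 2 replicate 2 or 3 (adjusted p = 0.0958 and 0.0782), without VIN13 day 5 replicate 1, 2 or 3 (0.0685, 0.0501 and 0.0769) and with only the arrays compared (0.0744), and with the ACT1 ratio as a covariate it was -0.46 (adjusted p = 0.000986).

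The first comparison over time was entry into stationary phase, day 5 against day 2. In BM45 5 of the 5 genes fell, where 33.9% of all genes measured did, and in VIN13 5 of 5 fell, where 22.2% of all genes did. The median change of the 5 was -0.97 in BM45 and -0.64 in VIN13, with the median of all genes as given above. Arrays of the 2 days did not overlap for any of the 5 genes in either strain, a separation toward lower values that 40.9% of all genes showed in BM45 and 25.9% in VIN13.

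The size of this fall was unequal among the genes. For each pair of genes the log2 difference on each array was compared between the days by an exact two-sided permutation test within the strains, adjusted over the 10 pairs of an interval, and 9 of the 10 pairs differed between days 2 and 5. ERG6 fell more than each of the others, and averaged over the strains its change minus that of ERG2 was -1.20 and minus that of ERG4 -1.82 (adjusted p = 0.01 for both, and p = 0.005, the smallest the permutations can give). ERG2 fell more than ERG5, at -0.48 (permutation adjusted p = 0.01), with -0.34 in BM45 and -0.63 in VIN13. ERG5 and ERG4 gave the pair that did not pass, with a difference of -0.14 (permutation adjusted p = 0.295). Without the 4 arrays 0 of the 10 pairs passed the adjustment. There the smallest p possible was 0.0417, and the 9 differences kept their direction averaged over the strains, at -1.18 for ERG6 minus ERG2 and -1.64 for ERG6 minus ERG4.

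**Figure D2:**
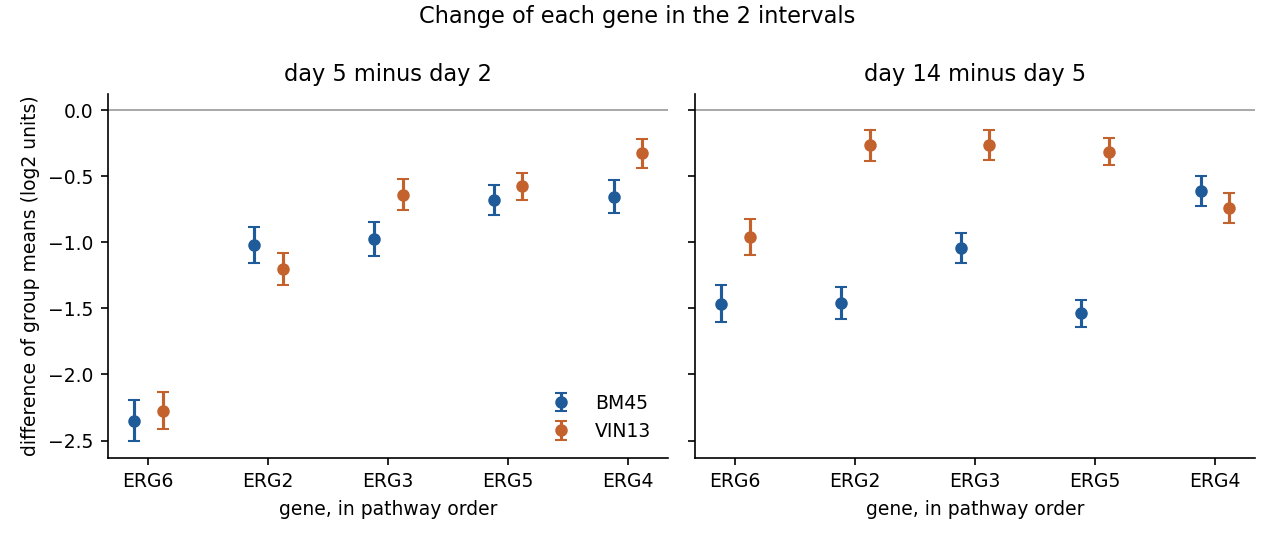
Difference of group means in log2 units for each gene in pathway order, day 5 minus day 2 on the left and day 14 minus day 5 on the right, as points with the standard error of the fit for BM45 (blue) and VIN13 (orange). ERG6 stands lowest on the left in both strains at -2.35 and -2.27, and on the right the strains part for ERG2, ERG3 and ERG5, with ERG5 at -1.54 in BM45 and -0.32 in VIN13.

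Between early and late stationary phase, day 14 against day 5, the comparison shares its day 5 arrays with the one before. In BM45 5 of the 5 genes fell, where 43.1% of all genes did, and their median change was -1.46 against -0.19 for all genes. In VIN13 ERG6, ERG5 and ERG4 fell, where 24.5% of all genes did, and the median of the 5 was -0.32 against -0.03. Relative to the median gene of each array, ERG5 changed by -1.35 and ERG4 by -0.42 in BM45. Only ERG6 minus ERG3 and ERG3 minus ERG5 passed among the 10 pairs in this interval, at -0.56 and 0.27 averaged over the strains (exact permutation, adjusted p = 0.025 for both). Both calls ended without VIN13 day 5 replicate 3, without any single BM45 array of day 5, without the 4 arrays and with quantile normalization. Without the 4 arrays the differences stood at -0.53 and 0.27 (exact permutation, p = 0.0167 and adjusted p = 0.0833 for both). In that setting 120 permutations were possible against 400 with all arrays, which limits how low p can go. Against ERG2, ERG3 and ERG5, ERG4 stood in opposite order in the strains, and against ERG6 in the same order. The change of ERG5 minus that of ERG4 was -0.92 in BM45 and 0.43 in VIN13, that of ERG2 minus ERG4 was -0.85 and 0.47, and whether these differ between the strains was not tested.

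Over the whole span from day 2 to day 14 all 5 genes fell in both strains, where 46.6% of all genes fell in BM45 and 35.5% in VIN13. In BM45 the changes were -3.82 ± 0.15 for ERG6, -2.48 ± 0.13 for ERG2, -2.02 ± 0.13 for ERG3, -2.22 ± 0.11 for ERG5 and -1.27 ± 0.12 for ERG4 (adjusted p between 7.81e-11 and 2.33e-07). In VIN13 they were -3.23 ± 0.14, -1.47 ± 0.12, -0.90 ± 0.12, -0.89 ± 0.10 and -1.07 ± 0.11 in the same order (adjusted p between 3.31e-10 and 8.49e-06). ERG6 stood 10th of all genes by the size of its fall in BM45 and 5th in VIN13. Of the 10 pairs 7 differed in this net change, among them ERG6 against each other gene and ERG2 against each of ERG3, ERG5 and ERG4 (exact permutation, adjusted p between 0.00833 and 0.0143). The pairs among ERG3, ERG5 and ERG4 did not pass. Without the 4 arrays all 5 genes still fell in both strains, with changes from -3.69 to -0.78, and 0 of the 10 pairs passed the adjustment at a smallest possible p of 0.0417. The intensities of day 2 for ERG6, ERG2, ERG3 and ERG5, 10232 to 16139, lay near the top of the scale, since the brightest probe set of an array read 15937 to 30409, and whether signal is compressed there was not tested.

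The strains were compared at each day. At day 2 ERG4 was higher in VIN13 by 0.49 ± 0.12 (adjusted p = 0.00829), and 7.95% of all genes were higher. For the other 4 genes the difference was between -0.13 and -0.04, and the 95% intervals reached from -0.41 to 0.25 for ERG6, from -0.34 to 0.23 for ERG2, from -0.31 to 0.24 for ERG3 and from -0.37 to 0.11 for ERG5. The ERG4 difference lost the call without BM45 day 2 replicate 4 (0.30, adjusted p = 0.116) and with only the arrays of day 2 in the fit (adjusted p = 0.182). It kept the call without the 4 arrays, that one among them (0.38, adjusted p = 0.00703), and in both cases BM45 was left with 1 array.

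At day 5 ERG4 was again the gene that passed, higher in VIN13 by 0.81 ± 0.11 (adjusted p = 8.13e-05), and 9.89% of all genes were higher. ERG6 differed by -0.00 ± 0.14 (95% interval -0.30 to 0.29) and ERG5 by -0.02 ± 0.10 (-0.24 to 0.19). ERG3 was at 0.30 ± 0.12 (adjusted p = 0.0728) and ERG2 at -0.24 ± 0.12 (adjusted p = 0.157), both with arrays that did not overlap between the strains, toward higher values in VIN13 for 19.3% of all genes and toward lower for 32.7%. ERG3 passed with median centring (0.39, adjusted p = 0.0168), with quantile normalization (0.32, adjusted p = 0.0447), with only the arrays compared (adjusted p = 0.0323) and without BM45 day 14 replicate 3 (adjusted p = 0.043), and ERG2 passed without the 4 arrays (-0.27, adjusted p = 0.0332).

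At day 14 5 of the 5 genes were higher in VIN13, where 32.4% of all genes were, and none had overlapping arrays, a separation upward that 39.9% of all genes showed. ERG5 differed by 1.20 ± 0.10 (adjusted p = 4.14e-07), which is 2.29-fold, ERG3 by 1.07 ± 0.12 (2.11-fold), ERG2 by 0.95 ± 0.12 (1.93-fold), ERG4 by 0.69 ± 0.11 (1.61-fold) and ERG6 by 0.50 ± 0.14 (adjusted p = 0.00699, 1.42-fold). The median of the 5 was 0.95, and that of the whole array 0.07. Leaving out the 4 arrays, the 5 differences ranged from 0.66 for ERG6 to 1.27 for ERG5, and all 5 passed. The arrays were designed on a reference yeast sequence, and how far the sequences of BM45 and VIN13 match the probes was not tested.

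**Figure D3:**
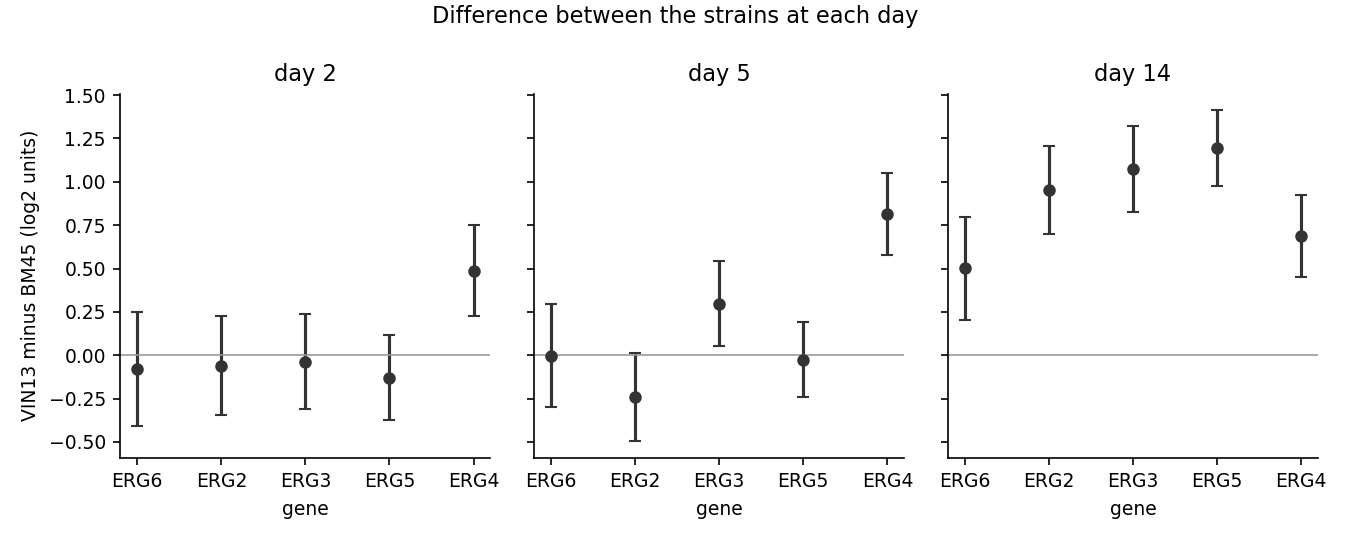
VIN13 minus BM45 in log2 units at days 2, 5 and 14 for each gene in pathway order, as the fitted difference with its 95% interval. At days 2 and 5 ERG4 stands above 0 at 0.49 and 0.81 while the intervals of ERG6, ERG2 and ERG5 include 0. The interval of ERG3 includes 0 at day 2 and runs from 0.05 to 0.54 at day 5, without adjustment across genes. At day 14 all 5 intervals lie above 0.

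The difference of the changes, VIN13 minus BM45, was then tested. From day 2 to 5 it passed for 0 of the 5 genes with limma, none had an unadjusted p under 0.05, and 8.66% of all genes passed in either direction. ERG4 was at 0.33 ± 0.17 (adjusted p = 0.232) and passed with the ACT1 covariate (0.45, adjusted p = 0.0303) and, with 1 BM45 array left at day 2, without the 4 arrays (0.47, adjusted p = 0.0127). Leaving out 1 array moved it between 0.14 and 0.51. From day 5 to 14 the change was higher in VIN13, that is the fall was smaller, for ERG5 by 1.22 ± 0.14 (adjusted p = 8.87e-05), for ERG2 by 1.19 ± 0.17 (adjusted p = 0.000236) and for ERG3 by 0.78 ± 0.16 (adjusted p = 0.00242), where 23.8% of all genes had the higher change. ERG6 was at 0.50 ± 0.20 (adjusted p = 0.0592) and ERG4 at -0.13 ± 0.16 (95% interval -0.46 to 0.20). ERG6 lay close to the threshold. It passed without the 4 arrays (0.69, adjusted p = 0.00237), with the ACT1 covariate (adjusted p = 0.0442), with only the arrays compared (adjusted p = 0.0456) and without any of 4 single arrays, VIN13 day 14 replicate 3 (0.66, adjusted p = 0.0102), BM45 day 5 replicate 2 (adjusted p = 0.048) and either BM45 array of day 2 (adjusted p = 0.0477), and was at 0.32 with median centring (adjusted p = 0.221).

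Over days 2 to 14 the net change was higher in VIN13 for 4 of the 5 genes, where 30.6% of all genes had the higher change. The differences were 1.33 ± 0.15 for ERG5, 1.11 ± 0.17 for ERG3, 1.01 ± 0.18 for ERG2 and 0.58 ± 0.21 for ERG6, and ERG4 was at 0.20 ± 0.17 (adjusted p = 0.361). The median of all genes was 0.21 in this comparison. Relative to the median gene of each array the values were 1.06 for ERG5, 0.84 for ERG3, 0.74 for ERG2 and 0.31 for ERG6, where the last no longer passed (adjusted p = 0.239). The ERG6 call (adjusted p = 0.0366) also ended without BM45 day 2 replicate 4 (0.46, adjusted p = 0.142), with the replicate block (adjusted p = 0.143), with quantile normalization (adjusted p = 0.0942), with only the arrays compared (adjusted p = 0.0762) and without 7 other single arrays. Without the 4 arrays, with 1 BM45 array left at day 2, all 5 genes passed, and ERG4 was then at 0.39 (adjusted p = 0.0147).

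The steps before these moved alongside. Of the 9 genes of the mevalonate pathway up to farnesyl diphosphate, 9 fell in BM45 and 8 in VIN13 from day 2 to 14, with medians of -3.39 and -2.25. Among all genes 46.6% and 35.5% fell, 28.8% and 28.2% rose, and the medians were -0.24 and -0.06. In BM45 ERG13, the HMG-CoA synthase gene, stood at -4.34 ± 0.17 and the mevalonate diphosphate decarboxylase gene MVD1 at -4.30 ± 0.22, both lower in value than ERG6. HMG2, an HMG-CoA reductase gene, was the one without a call in VIN13, at 0.14 ± 0.16. Of the 8 genes from squalene to zymosterol 8 fell in each strain, with medians of -2.35 and -1.58, led by the lanosterol synthase gene ERG7 at -3.51 ± 0.13 in BM45 and -2.78 ± 0.12 in VIN13.

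The late strain difference reached these steps too. At day 14 8 of the 9 mevalonate genes and 8 of the 8 genes from squalene to zymosterol were higher in VIN13, with medians of 1.05 and 0.72, where 32.4% of all genes were higher, led by the isopentenyl diphosphate isomerase gene IDI1 at 1.53 ± 0.10 and the squalene epoxidase gene ERG1 at 1.25 ± 0.10. Between days 5 and 14 the change was higher in VIN13 for 6 of the 9 and 7 of the 8, where it was for 23.8% of all genes, among them ERG20 of farnesyl diphosphate synthesis at 0.99 ± 0.23 and ERG26 of C-4 demethylation at 1.06 ± 0.19.

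**Figure D4:**
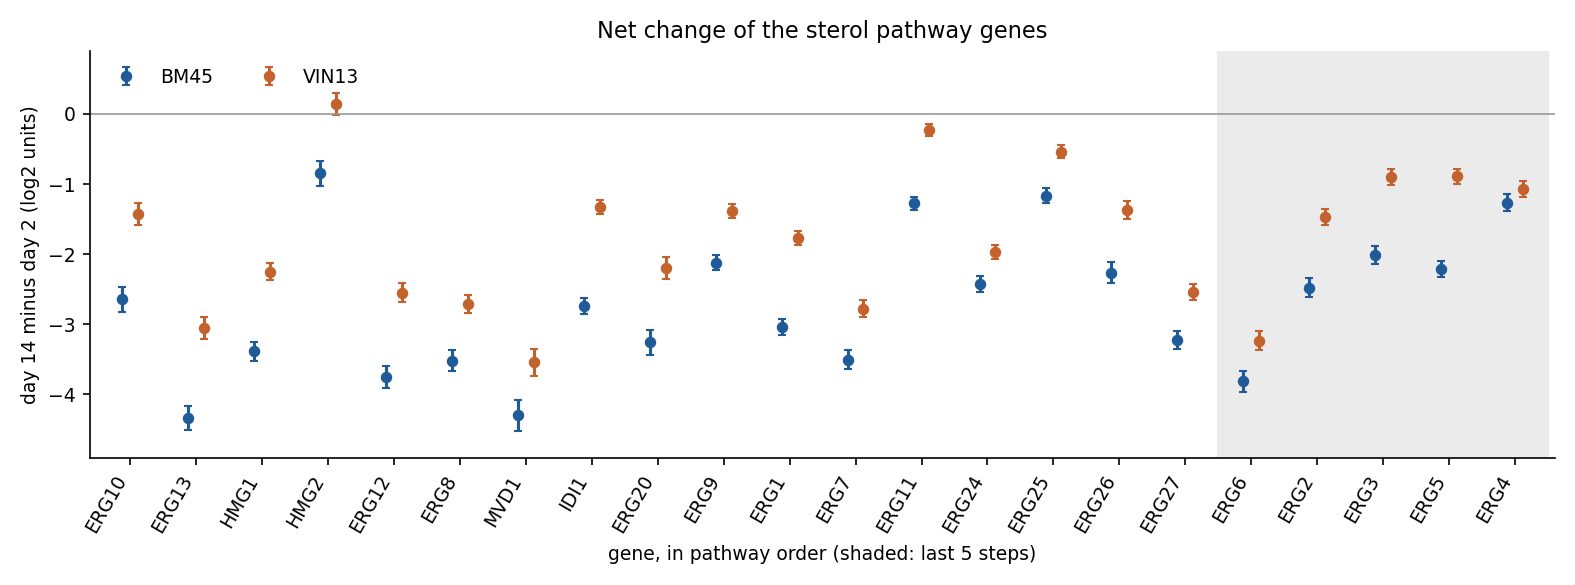
Day 14 minus day 2 in log2 units with the standard error of the fit for 22 sterol pathway genes in pathway order, BM45 in blue and VIN13 in orange, with the last 5 steps shaded. The VIN13 point lies above the BM45 point for each gene, and within the shaded steps ERG6 is lowest at -3.82 and -3.23 and the strains are closest for ERG4 at -1.27 and -1.07.

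Genes that serve the last enzymes were looked at beside them. Of 6 genes for electron donors and scaffolds of sterol enzymes, 6 fell in both strains from day 2 to 14, with medians of -1.31 and -0.83, beside the 46.6% and 35.5% of all genes that fell. CYB5, for the cytochrome b5 that passes electrons to sterol desaturation, changed by -3.49 ± 0.19 in BM45 (adjusted p = 8.32e-10) and by -1.79 ± 0.17 in VIN13 (adjusted p = 5.02e-07). At day 14 CYB5 was higher in VIN13 by 1.79 ± 0.17, and its change from day 5 to 14 was higher there by 1.79 ± 0.24 (adjusted p = 0.000177). DAP1, whose product binds heme and acts with the P450 enzymes of the pathway, rose in VIN13 from day 5 to 14 by 0.73 ± 0.09.

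All 5 genes of the cycle that supplies and clears the methyl donor of Erg6p fell in each strain from day 2 to 14, with medians of -1.79 and -1.51, beside the same 46.6% and 35.5%. The S-adenosylhomocysteine hydrolase gene SAH1 changed by -2.43 ± 0.14 in BM45, and MET6, the methionine synthase gene, changed by -1.84 ± 0.13 in VIN13. At day 14 SAH1 was higher in VIN13 by 0.87 ± 0.12, and the S-adenosylmethionine synthetase gene SAM2 was lower, at -0.42 ± 0.10, so the strains did not stand in 1 order across this cycle.

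Among 17 genes of sterol regulation, uptake and esters, 9 fell and 3 rose in BM45 from day 2 to 14, and 9 fell and 2 rose in VIN13. The share that fell in BM45 was near that of all genes, 46.6%, and in VIN13 35.5% of all genes fell. The shares that rose were below the 28.8% and 28.2% of all genes. UPC2, which encodes an activator of ergosterol genes, rose by 1.15 ± 0.36 in BM45 (adjusted p = 0.00872) and by 1.39 ± 0.32 in VIN13 (adjusted p = 0.00148). HAP1, for the heme-dependent activator, rose by 0.93 ± 0.26 and 1.49 ± 0.23 (adjusted p = 0.00394 and 4.77e-05). The regulators did not move in 1 direction, since ECM22, for another sterol regulator, fell in both strains. It changed by -0.61 ± 0.12 in BM45 (limma adjusted p = 0.000296) and by -0.76 ± 0.11 in VIN13 (limma adjusted p = 2.29e-05). The steryl ester hydrolase gene YEH1 changed by -2.49 ± 0.16 in BM45 and -2.20 ± 0.14 in VIN13. ARE2, a gene of sterol ester synthesis, changed by -1.08 ± 0.12 in BM45 and by -2.34 ± 0.11 in VIN13. At day 14 ARE2 was lower in VIN13, at -0.72 ± 0.11. At day 14 the sterol transporter gene AUS1 was higher in VIN13 by 1.88 ± 0.19, as was ROX1, for a repressor of hypoxic genes, by 1.74 ± 0.23, and both also differed that way at day 2, by 1.16 ± 0.22 and 1.42 ± 0.25.

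Of 11 hypoxic genes, read as a sign of oxygen supply, 5 fell in BM45 and 6 in VIN13 from day 2 to 14, with medians of -0.49 and -0.84. Of all genes 46.6% fell in BM45 and 35.5% in VIN13, with medians of -0.24 and -0.06. The BM45 count is near the share of all genes. The number called in BM45 in either direction was 2 with median centring and 9 with the ACT1 covariate. Of 11 markers of meiosis and spores, which a culture late in fermentation could hold, 7 had a mean below the background bound. From day 2 to 14, 5 rose and 3 fell in BM45, and 5 rose and 2 fell in VIN13. Of all genes, 28.8% rose and 46.6% fell in BM45, and 28.2% rose and 35.5% fell in VIN13. Of the 5 markers that rose, 4 in each strain had a mean below the bound. With dim genes left out, 2 markers were called in either direction in BM45 and 3 in VIN13. Among markers above the bound, in the fit of all genes, DIT1 rose by 0.66 and NDT80 fell, at -2.09, in BM45. In VIN13 SPS100 rose by 0.54, and NDT80 and IME2 fell, at -1.17 and -0.57. The part of oxygen supply or spores in the changes of the ERG genes was not tested.

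The genes nearest in profile were sought by Pearson correlation of the log2 values over the 17 arrays, among 5115 genes above the background bound. The arrays fall into the same days and strains for all genes, so the values describe a shared course only. Nearest to ERG6 were ERG27, of C-4 demethylation (r = 0.994), the acetyl-CoA synthetase gene ACS2 (r = 0.990) and YDL086W (r = 0.989). Nearest to ERG2 were the sterol genes ERG10 (r = 0.988), ERG9 (r = 0.985) and ERG26 (r = 0.985), and nearest to ERG3 were IDI1 (r = 0.984), ERG1 (r = 0.983) and DIE2, a glucosyltransferase gene of protein glycosylation (r = 0.983). ERG5 had CYB5 as its nearest gene (r = 0.989), ahead of IES3 (r = 0.987) and ORC2 (r = 0.984).

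ERG4 had no sterol gene among its 3 nearest, which were VMA5, for a subunit of the vacuolar proton pump (r = 0.983), the valyl-tRNA synthetase gene VAS1 (r = 0.973) and the proline use gene PUT2 (r = 0.969). Among the 5 themselves the highest correlation was that of ERG3 with ERG5 (r = 0.974) and the lowest that of ERG6 with ERG4 (r = 0.810). ERG5 stood 14th among all genes in likeness to ERG3, whereas ERG4 stood 1004th in likeness to ERG6.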

How the data were processed

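RNA was measured on 17 Affymetrix yeast arrays, and the deposited values are linear intensities, 1 per probe set and array. Per the submitters' processing notes the authors used Affymetrix Expression Console. Its summarisation and normalization steps were not given in the sources used here. Among 10928 probe sets in the table, 5498 were annotated to a single S. cerevisiae gene and 1746 to S. pombe. For 47 genes with several probe sets the brightest on average was used, which left 5449 genes, all of them tested on the values as deposited.

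Intensities were taken as log2(value + 16). A mean per strain and day was fitted to the 17 arrays with limma 3.58.1 (lmFit and eBayes, R 4.3.3), with 11 residual and 3.806 prior degrees of freedom. P-values were two-sided, with Benjamini-Hochberg adjustment across the genes of each contrast. The background bound is the level under which 95% of S. pombe probe sets lay. Pairs of the 5 genes were compared by exact permutation within strains, with Python 3.11.15. Both procedures were tested on simulated data. The genes, the lists, the 4 arrays left out together and the alternatives were chosen with earlier results of these data known, so the lists are no independent evidence. Named genes were all 5 of the pathway's last steps, the 3 nearest in profile to each, and up to 3 called genes with the largest change per list and contrast. HMG2, and UPC2, HAP1, ECM22, ARE2, DIT1, SPS100, IME2, IME1, SMK1 and SPS1 where outside the first 3, were named after their values were seen. No sequence or promoter search is given, since no sequences were used here. The number of arrays limits the precision.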

Additional observations from a re-analysis of the deposited data

Results flagged for a closer look

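Each result given here was singled out because the change over time differed between the strains by a test of the difference itself. All such calls of the 5 genes are given. CYB5, ERG26 and ERG20 each had the largest called difference from day 5 to 14 in 1 list, and other genes of those lists passed too. Among all genes the change was higher in VIN13 for 23.8% from day 5 to 14 and for 30.6% from day 2 to 14. From day 5 to day 14 the change was higher in VIN13 than in BM45 by 1.22 for ERG5, 1.19 for ERG2 and 0.78 for ERG3 on the log2 scale, and by 1.79 for CYB5, 1.06 for ERG26 and 0.99 for ERG20. From day 2 to day 14 it was higher in VIN13 by 1.33 for ERG5, 1.11 for ERG3, 1.01 for ERG2 and 0.58 for ERG6. The ERG6 difference did not pass with median centring (0.31, adjusted p = 0.239), quantile normalization, the replicate block or only the arrays compared, nor without any of 8 single arrays. The groups hold 2 or 3 arrays, too few to look for single outlying arrays in a group.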

How the results depend on the processing

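The counts of the 5 genes called stayed the same or within 1.5 times in most alternatives. At day 2 the count between the strains went from 1 to 0 with only the arrays compared, and at day 5 it went from 1 to 2 with quantile normalization, median centring, only the arrays compared and without the 4 arrays. For the difference of changes from day 2 to 5 it went from 0 to 1 with the ACT1 covariate and without the 4 arrays. Leaving out 1 array at a time, the counts ranged from 4 to 5 for VIN13 from day 2 to 5, 2 to 4 from day 5 to 14, 0 to 1 between the strains at day 2, 1 to 2 at day 5, 3 to 4 for the difference of changes from day 2 to 14 and from day 5 to 14, and were constant elsewhere. The pairs with unequal change numbered 8 to 10 from day 2 to 5, 7 to 7 from day 2 to 14 and 0 to 3 from day 5 to 14 in that test. The lowest adjusted p of the permutation test was 0.01 from day 2 to 5 and 0.025 from day 5 to 14. The first belonged to pairs at the smallest p possible, 0.005. At an adjusted p under 0.01 the pairs thus numbered 0 from day 2 to 5 and 0 from day 5 to 14, where quantile normalization gave 0 as well. Without the 4 arrays they numbered 0 in each of the 3 intervals, with a smallest possible p of 0.0417 when day 2 was compared. From day 5 to 14 that setting allowed 120 permutations against 400, and ERG6 minus ERG3 and ERG3 minus ERG5 stood at -0.53 and 0.27 in it. No difference of the 5 genes that passed in any alternative or in the reported fit changed sign between them, while 29 values lost a call and 18 gained one. The cause of these changes was not tested.

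Replicate numbers gave no uniform pairing of the arrays. Of 31 same-numbered pairs in different groups, 15 had deviations correlated above 0.1 (range -0.38 to 0.64). The replicate 2 arrays were positively correlated in every pair, from 0.01 to 0.64, and BM45 and VIN13 replicate 1 at day 5 gave -0.38. Deviations were taken from the group mean and cancel out within a group, so these correlations are not independent of each other. Whether arrays of 1 number belong together cannot be told from the labels. With the replicate number as a block, 4 of the 5 genes called for the difference of changes from day 2 to 14 became 3, and all other counts of the 5 stayed. The count over all genes for the difference of changes from day 2 to 5, 472, was 1494 without the 4 arrays and ranged from 184 to 1348 with 1 array left out. For VIN13 against BM45 at day 5 it was 2775 without the 4 arrays and 2087 with only the arrays compared, against 1373, at day 2 it was 108 with only the arrays compared against 1702, and for the difference of changes from day 5 to 14 it was 3178 without the 4 arrays against 1861. At an adjusted p under 0.01 it was 936 and 761 at days 2 and 5, 127, 1031 and 1392 for the differences of changes from day 2 to 5, 5 to 14 and 2 to 14 (2217 as reported for the last), and in VIN13 1225 against 2052 from day 2 to 5 and 1558 against 2371 from day 5 to 14. It was 194 for the first difference of changes with only the arrays compared, and 913 at day 5 without replicate 2 of BM45 at day 5.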
